A study of Mus musculus with 19 samples.

Results

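S100 proteins are small calcium-binding proteins with EF-hand motifs, and this account follows those of tibialis anterior muscle that lie outside calprotectin (the S100a8 and S100a9 pair of neutrophils). The 6 listed genes were S100a4, S100a6, S100a10, S100a11, S100a13 and S100a1. A gene was taken where a probe set of the array was annotated to it alone, and its main probe set was the one with the highest mean over the 19 arrays. That left 5 of the 6, out of 12393 genes with such a probe set. The probe set that carries S100a11 is annotated to 3 symbols, so S100a11 was not analysed here. All 5 were bright enough to be among the 7436 genes tested, with mean levels at percentiles 83.1 (S100a13) to 94.7 (S100a1) of all genes. The list was selected on measured values. Which comparison chose it is not recorded, and it was taken to be that of adult Des(-/-) and wild-type muscle, in which S100a4 was known to stand out, so that comparison is described without p-values for these genes. The members were chosen with earlier results of these data known, and whether these included aged muscle is not recorded. The p-values given in aged muscle hold as tests only if the aged arrays played no part in the choice.

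Each array held RNA of 1 tibialis anterior muscle sample, a fast shin muscle, taken 12 h after 50 eccentric contractions (the muscle is stretched while active). KO_Adult (5 arrays) were Des(-/-) mice on 129/SVE aged 7 to 9 weeks, and WT_Adult (5 arrays) were wild-type 129/SVE mice of that age. KO_Aged (4 arrays) were Des(-/-) and WT_Aged (5 arrays) wild type, at 12 to 14 months. Every group had the contractions and no rested muscle was analysed here, so no value shows the response to exercise itself. The labels name the knockout as Des(-/-) without describing the allele, and leave unsaid whether each array had an animal of its own. The p-values thus reflect array-to-array spread, part of which may be technical.

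On binding calcium, most S100 dimers expose a surface that grips a target protein. S100a1 is the S100 protein best known from heart and skeletal muscle, where it binds the ryanodine receptor and the SERCA calcium pump. S100a4 binds non-muscle myosin and is abundant in fibroblasts and leukocytes, S100a6 (calcyclin) binds Cacybp, S100a10 has lost calcium binding and pairs with annexin A2, and S100a13 takes part in the release of the growth factor FGF1 from cells.

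The desmin gene Des was low on every array labelled Des(-/-), at 311 to 879 in KO_Adult against 13700 to 22313 in WT_Adult, and 72.7 to 636 in KO_Aged against 10749 to 12736 in WT_Aged. Fast fibre markers (12 of 12 measured) had summed intensities of 270670 to 327296 in KO_Adult, 253981 to 456462 in WT_Adult, 290567 to 332847 in KO_Aged and 238104 to 303674 in WT_Aged. Signal from poly-A spike-in controls, RNAs added to a sample before labelling, was present on 8 arrays, namely the 5 WT_Aged arrays and KO_Adult replicates 3, 4 and 5, and nearly absent on 11. The 18S ribosomal RNA control probe set split the same way, at 5835 to 19660 on those 8 arrays and 29.1 to 181 on the 11. The split is thus not confined to the added RNAs, and its source was not tested. It is called the spike-in batch below. KO_Aged replicates 2 and 3 had Gapdh 3' to 5' probe set ratios of 8.61 and 5.01, where the other arrays had at most 0.968, a sign of RNA or labelling that favours 3' ends. KO_Adult, with arrays on both sides, is the group that lets a batch term be estimated, and values with that term stand beside the results they touch.

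S100a4 stood far above wild type in adult muscle without desmin. Its intensity was 4822, 6714, 5751, 5515 and 9397 on the KO_Adult arrays, against 606, 1192, 759, 487 and 374 on the WT_Adult arrays. Every KO_Adult array was above every WT_Adult array. The group means were 6440 ± 1786 in KO_Adult and 683 ± 318 in WT_Adult (SD, n = 5 each). The difference was 3.29 (SE 0.34) on the log2 scale, or 9.75-fold. It was 3.10 (SE 0.46) with the batch term, which for this comparison rests on the 2 KO_Adult arrays without spike-in signal. Where the 3 KO_Adult arrays with spike-in signal were set against WT_Aged, the arrays of their own batch, the difference was 2.50 (SE 0.31), with age differing too.

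In aged muscle the S100a4 values were 1875, 6022, 3909 and 3007 in KO_Aged, against 1409, 1159, 898, 1962 and 728 in WT_Aged. The groups overlapped by 1 array each, KO_Aged replicate 1 lying below WT_Aged replicate 4, and the highest KO values were those of the 2 arrays with a high Gapdh ratio. S100a4 rose by 1.54 (SE 0.37, 2.91-fold) in aged KO muscle, with a Benjamini-Hochberg adjusted p of 0.00422 (limma). Without KO_Aged replicates 2 and 3 the difference was 1.06 (SE 0.43) and did not pass (adjusted p = 0.113), and with the batch term it was 1.85 (SE 0.62, adjusted p = 0.0817). With both changes it was 1.37 (SE 0.64, adjusted p = 0.163). The difference was positive in each of these fits and passed only in the first.

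The order of the 4 group means of S100a4 was KO_Adult, KO_Aged, WT_Aged and WT_Adult. WT_Aged was above WT_Adult by 0.91 (SE 0.34), with overlapping arrays, and KO_Aged was below KO_Adult with a difference of -0.83 (SE 0.37). The genotype difference in aged muscle minus that in adult muscle was -1.74 (SE 0.50). No p-value is given for these 3 values, since they share the adult arrays on which S100a4 was singled out. The age and interaction values of the other S100 genes share adult arrays with that comparison too, so their p-values are given as descriptions and not as tests.

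The 250 bases before the S100a4 transcription start are shown because no other listed gene moved as far. They lie at chr3:90603520-90603769 on the plus strand (RefSeq, GRCm38.p6), and capitals mark a TATAAA at position -31 from the first transcribed base.
S100a4: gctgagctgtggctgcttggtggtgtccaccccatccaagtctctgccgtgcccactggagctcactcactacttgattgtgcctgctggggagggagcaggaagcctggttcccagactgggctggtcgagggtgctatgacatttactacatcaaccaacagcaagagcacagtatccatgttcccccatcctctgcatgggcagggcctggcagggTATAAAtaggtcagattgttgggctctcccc
Searched on both strands over windows of 300 bases (250 before a start and 50 after it), TATAAA is held by 13.6% of the 32851 windows of the table. Among the windows of S100a4, S100a6, S100a13 and S100a1 it was found in that of S100a4. The AP-1 sequence TGANTCA, held by 7.81% of all windows, was in none of these 4 and occurred 2 times in the window of S100a11.

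**Figure D1:**
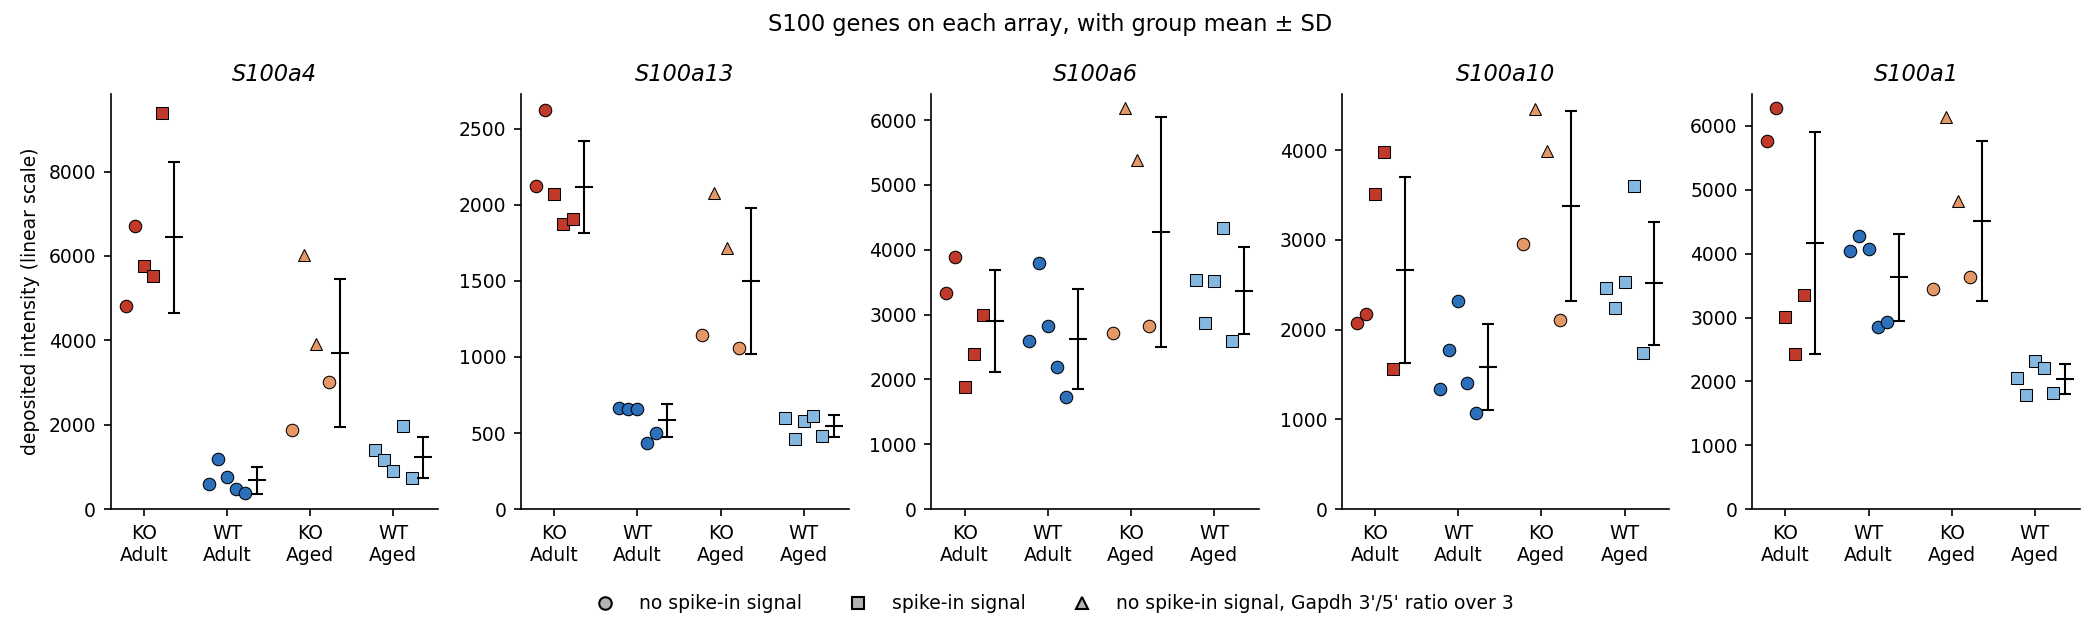
Deposited intensity (linear scale) of the 5 S100 genes on each of the 19 arrays, by group, with the group mean and SD as a black bar; circles lack spike-in signal, squares have it, and triangles are the 2 KO_Aged arrays whose Gapdh ratio exceeded 3. S100a4 and S100a13 separate KO_Adult from WT_Adult without overlap, while S100a6 overlaps in every pair of groups.

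S100a13, the FGF1-release partner, was the other listed gene that stood apart in KO muscle, and it did so with less spread. Its intensity was 2122, 2623, 2070, 1872 and 1907 in KO_Adult, against 663, 657, 657, 438 and 501 in WT_Adult. In aged muscle it was 1147, 2077, 1714 and 1060 in KO_Aged, against 596, 463, 580, 611 and 479 in WT_Aged. No KO array fell as low as any WT array at either age, and the 2 highest KO_Aged values again came from the arrays with a high Gapdh ratio. The adult difference was 1.87 (SE 0.20, 3.66-fold). It was 2.05 (SE 0.25) with the batch term and 1.80 (SE 0.12) between the 3 KO_Adult and 5 WT_Aged arrays with spike-in signal.

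In aged muscle S100a13 rose by 1.35 (SE 0.21, 2.54-fold, adjusted p = 0.000159). Leaving out the 2 arrays of high Gapdh ratio, it rose by 0.95 (SE 0.21, adjusted p = 0.00757). With the batch term the difference was 1.06 (SE 0.34, adjusted p = 0.0743), and with both changes it was 0.66 (SE 0.30, adjusted p = 0.151). In wild-type muscle S100a13 showed no detectable age difference, at -0.04 (95% confidence interval -0.45 to 0.37, adjusted p = 0.884), and with the batch term the sign turned, at 0.25. KO_Aged minus KO_Adult was -0.57 (SE 0.21, adjusted p = 0.101). Leaving out those 2 arrays that age difference passed, at -0.96 (adjusted p = 0.0311), and so it did without KO_Aged replicate 2 alone, at -0.75 (adjusted p = 0.0425). S100a13 was annotated to 1 probe set, so no other probe set could be set beside it.

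S100a13 and S100a1 lie head to head on chromosome 3. The 104 bases between their annotated starts are shown because S100a13, on one side, stood above wild type in adult KO muscle by 1.87. S100a1, on the other side, differed there by 0.04 on all arrays and by 0.61 with the batch term. The stretch is chr3:90514331-90514434 (RefSeq, GRCm38.p6), written on the plus strand, with S100a13 read to the right and S100a1 to the left. The gene table also extends S100a13 to the left of this stretch. Capitals mark its 1 match to an NF-kB type motif, a pattern found on either strand in 50.8% of all windows. The S100a4 stretch shown above holds 3 matches to this pattern, which are not marked there.
S100a13 and S100a1: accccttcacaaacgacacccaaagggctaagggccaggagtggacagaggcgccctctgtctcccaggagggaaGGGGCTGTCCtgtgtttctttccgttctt

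S100a1, the muscle member, differed little between adult genotypes over all arrays, but within KO_Adult it split by the spike-in batch. Its main probe set read 5761, 6284, 3002, 2429 and 3353 in KO_Adult, against 4038, 4272, 4069, 2852 and 2930 in WT_Adult. The 2 KO_Adult arrays without spike-in signal (5761 and 6284) lay above the 3 with it (2429 to 3353), while the WT_Adult arrays, all without it, read 2852 to 4272. S100a6 (3338 to 3882 without the signal, 1878 to 2990 with it) and S100a13 (2122 to 2623 without it, 1872 to 2070 with it) split the same way within KO_Adult. The adult difference of S100a1 was 0.04 (SE 0.22) on all arrays and 0.61 (SE 0.20) with the batch term. Between the 3 KO_Adult and 5 WT_Aged arrays with spike-in signal it was 0.51 (SE 0.15), with age differing too.

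In aged muscle S100a1 read 3442, 6148, 4828 and 3637 in KO_Aged, against 2054, 1785, 2319, 2206 and 1820 in WT_Aged, with no overlap. It rose by 1.15 (SE 0.23, 2.22-fold, adjusted p = 0.00131) in aged KO muscle and, leaving out KO_Aged replicates 2 and 3, by 0.89 (adjusted p = 0.0435). Here all WT_Aged arrays carry spike-in signal and no KO_Aged array does, and with the batch term the difference was 0.20 (SE 0.28, adjusted p = 0.683). S100a1 fell by 0.85 (SE 0.22, adjusted p = 0.00613) in WT_Aged against WT_Adult, a difference that lies wholly across the batch and was 0.10 (adjusted p = 0.878) with the term. KO_Aged minus KO_Adult was 0.27 (adjusted p = 0.537). The genotype difference of S100a1 was larger in aged than in adult muscle by 1.11 (SE 0.32, adjusted p = 0.0169), a value that became -0.40 (adjusted p = 0.617) with the batch term and 0.85 (adjusted p = 0.114) without KO_Aged replicates 2 and 3. Without those 2 arrays the interaction of S100a13 passed instead, at -0.92 (adjusted p = 0.0298), against -0.53 (adjusted p = 0.183) on all arrays. The other probe set of S100a1 gave 1.20 for aged KO against WT and -0.87 for WT_Aged against WT_Adult, close to the main one.

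S100a6, which binds the ubiquitin-pathway protein Cacybp, did not pass in any comparison tested. Its intensity averaged 2896 ± 786 in KO_Adult and 2626 ± 774 in WT_Adult (SD, n = 5 each), and 4274 ± 1773 in KO_Aged (SD, n = 4) and 3369 ± 677 in WT_Aged (SD, n = 5). The adult difference was 0.10 (SE 0.25). In aged muscle it was 0.28 (95% confidence interval -0.28 to 0.83, adjusted p = 0.454), and with the batch term -0.29 (adjusted p = 0.706), so its sign is not settled. The KO_Aged mean was carried by replicates 2 and 3, the arrays of high Gapdh ratio, at 6186 and 5378, while the other KO_Aged arrays read 2708 and 2825, within the WT_Aged range of 2590 to 4334.

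S100a10, the annexin A2 partner, was higher on average in KO_Adult, at 2662 ± 1032 against 1582 ± 481 in WT_Adult (SD, n = 5 each), with overlapping arrays. The main probe set differed by 0.69 (SE 0.27) between adult genotypes and its other probe set by 1.26 (SE 0.35). In aged muscle the means were 3378 ± 1057 in KO_Aged (SD, n = 4) and 2513 ± 681 in WT_Aged (SD, n = 5), a difference of 0.41 (SE 0.29, adjusted p = 0.295). The other probe set gave -0.21 there (adjusted p = 0.742), so the 2 probe sets of S100a10 disagreed in sign. Between WT ages the main probe set differed by 0.66 (adjusted p = 0.0619) and the other one rose by 1.29 (adjusted p = 0.0139 in a fit to single probe sets).

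**Figure D2:**
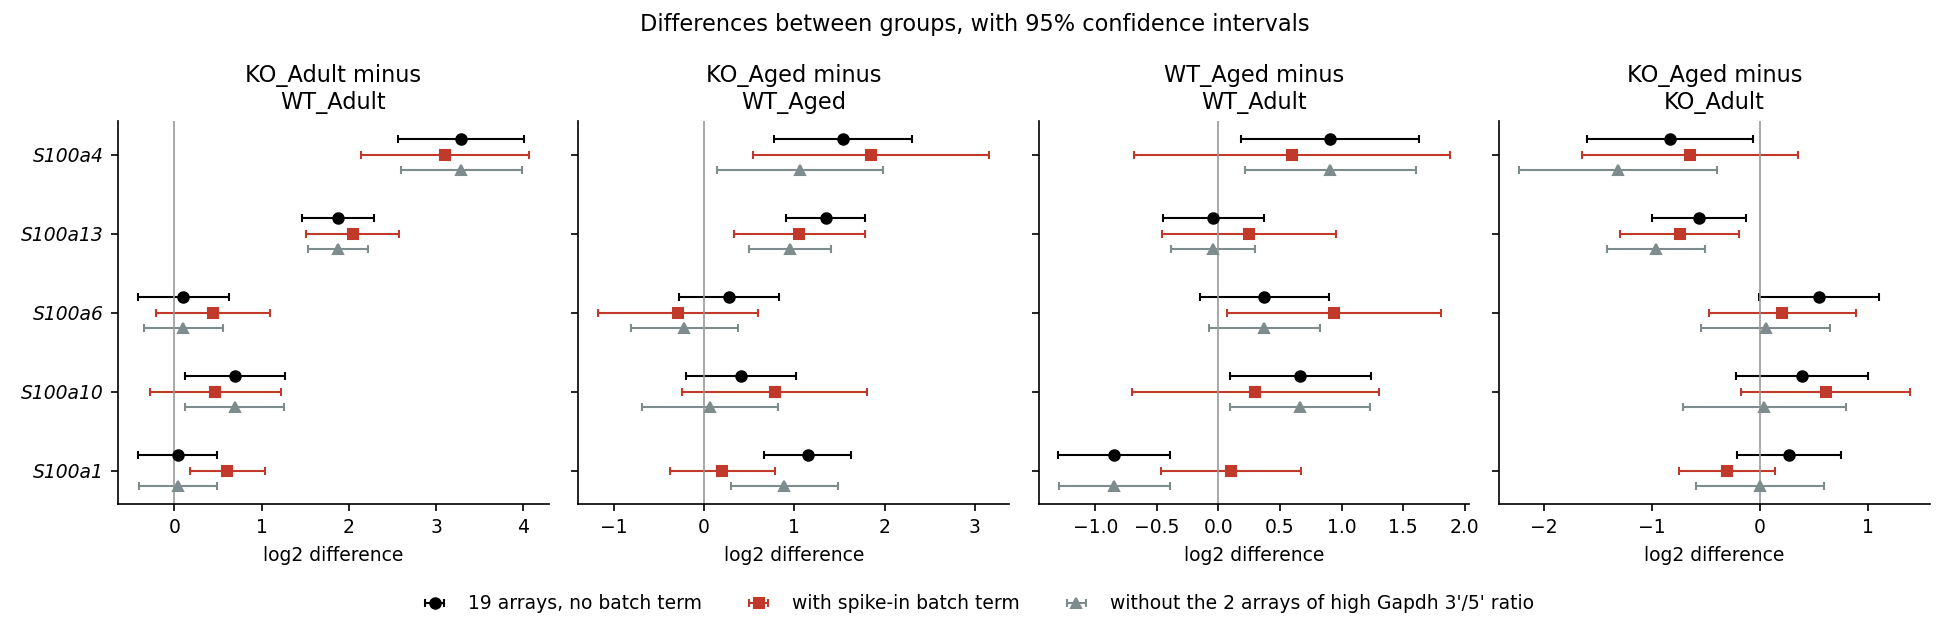
Log2 differences (x axis) of the 5 S100 genes in the 4 comparisons of groups, with 95% confidence intervals, from the fit to 19 arrays, the fit with a spike-in batch term and the fit without the 2 arrays of high Gapdh ratio. In adult muscle S100a4 is at 3.29, and 3.10 with the batch term, and S100a13 at 1.87 and 2.05. Leaving out the 2 KO_Aged arrays cannot move these adult estimates. S100a1 in aged muscle is at 1.15, 0.20 and 0.89 in the 3 fits.

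By counts, 2 of the 5 S100 genes (S100a4 and S100a13) were past the threshold in adult KO against WT, both higher, where 16.7% of all genes tested were called, 7.32% as higher and 9.37% as lower. The rule used that comparison and nothing is read from the count. In aged KO against WT 3 of 5 rose and none fell, where 29.5% of all genes were called, 16.9% as higher and 12.5% as lower, and the median difference was 1.15 for the 5 and 0.07 for all genes. With the batch term none of the 5 passed in aged muscle, where 5.49% of all genes were called. In WT_Aged against WT_Adult S100a1 fell and, leaving S100a4 aside, no other member passed. Of all genes 38.9% were called there, 18.1% as higher and 20.8% as lower. With the batch term none of the 5 passed, but only 7 of all 7436 genes (0.0941%) were called. None of the 5 passed in KO_Aged against KO_Adult (7.44% of all genes called). For the interaction, again leaving S100a4 aside, S100a1 passed, where 25.1% of all genes were called, 14.3% as higher and 10.8% as lower. With the batch term none of the 5 passed the interaction, but only 2 of all 7436 genes (0.0269%) were called. With so few calls over all genes, these counts of none tell little about the 5 genes. Groups did not overlap for S100a4 and S100a13 in adult genotypes (10.1% of all genes), for S100a13 and S100a1 in aged genotypes (31.2%) and for S100a1 in WT ages (29.4%).

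On the arrays, S100a13 was the gene whose normalized log2 level was most like that of S100a4 among the other genes tested, at Pearson r = 0.92 and Spearman rho = 0.88 over 19 arrays. The next 4 were Avpi1 (r = 0.91), C9orf72 (r = 0.91), Serpinb6a, a protease inhibitor (r = 0.91), and Plp2, a membrane protein (r = 0.90). These values share the genotype difference, the arrays and their normalization, and are descriptive. Of deviations from the group means, r with S100a4 was 0.64 for S100a13, 0.62 for Avpi1, 0.46 for C9orf72, 0.41 for Plp2 and 0.12 for Serpinb6a. S100a6 had a lower pooled r with S100a4 (0.37) but deviated from its group means together with S100a4 (r = 0.74), S100a13 (r = 0.83) and S100a1 (r = 0.79). Group means do not remove technical splits within a group. S100a6, S100a13 and S100a1 were higher on the 2 KO_Adult arrays without spike-in signal than on the 3 with it. In KO_Aged all of these genes were highest on replicates 2 and 3, the arrays of high Gapdh ratio. The part of these splits in the r values was not tested.

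**Figure D3:**
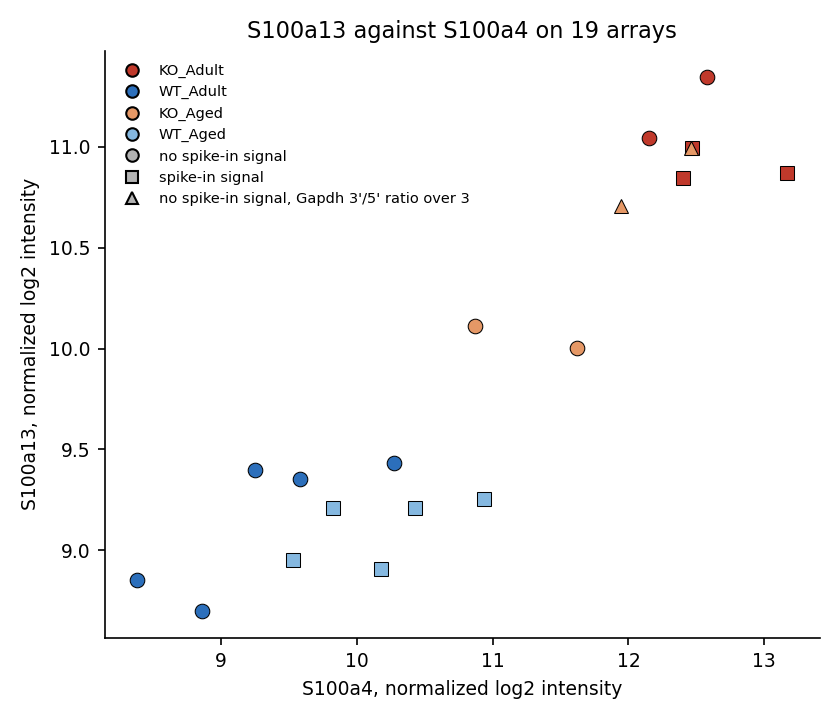
S100a13 against S100a4, each as normalized log2 intensity, on the 19 arrays; colour gives the group and shape the spike-in signal and Gapdh ratio. KO_Adult arrays lie at the upper right and both WT groups at the lower left, with Pearson r = 0.92 over the 19 arrays.

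The S100a genes lie together on chromosome 3, in the order S100a1, S100a13, S100a14, S100a16, S100a3, S100a2, S100a4, S100a5, S100a6, S100a7a, S100a8 and S100a9, with S100a11 and S100a10 farther along. Along this row the adult KO minus WT differences were 0.04 for S100a1, 1.87 for S100a13, 0.49 (SE 0.17, adjusted p = 0.0579) for S100a16, 3.29 for S100a4, 0.10 for S100a6, 1.16 for S100a8, 1.34 for S100a9 and 0.69 for S100a10. The batch term made them 0.61 for S100a1, 2.05 for S100a13, 0.50 for S100a16, 3.10 for S100a4, 0.44 for S100a6, 1.03 for S100a8, 1.30 for S100a9 and 0.47 for S100a10, so S100a4 and S100a13 had the largest differences in both fits. S100a16 fell by 0.51 (SE 0.18, adjusted p = 0.0433) in aged KO muscle, at 1697 ± 345 in KO_Aged (SD, n = 4) and 2334 ± 139 in WT_Aged (SD, n = 5), but did not pass with the batch term (-0.53, adjusted p = 0.294). The nearest tested genes that are not S100 genes, 3 on each side of a listed gene and 8 in all, gave no call between adult genotypes, with differences from -0.47 (Lce1i) to 0.38 (Ilf2). In aged muscle 4 of the 8 rose, namely Snapin by 0.68, Sprr1a by 1.47, Mrpl9 by 0.68 and Psmb4 by 0.62, with a median of 0.59 against 0.07 for all genes, of which 16.9% were called higher. None of the 8 passed with the batch term, where 5.49% of all genes were called, and their median was then 0.04.

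**Figure D4:**
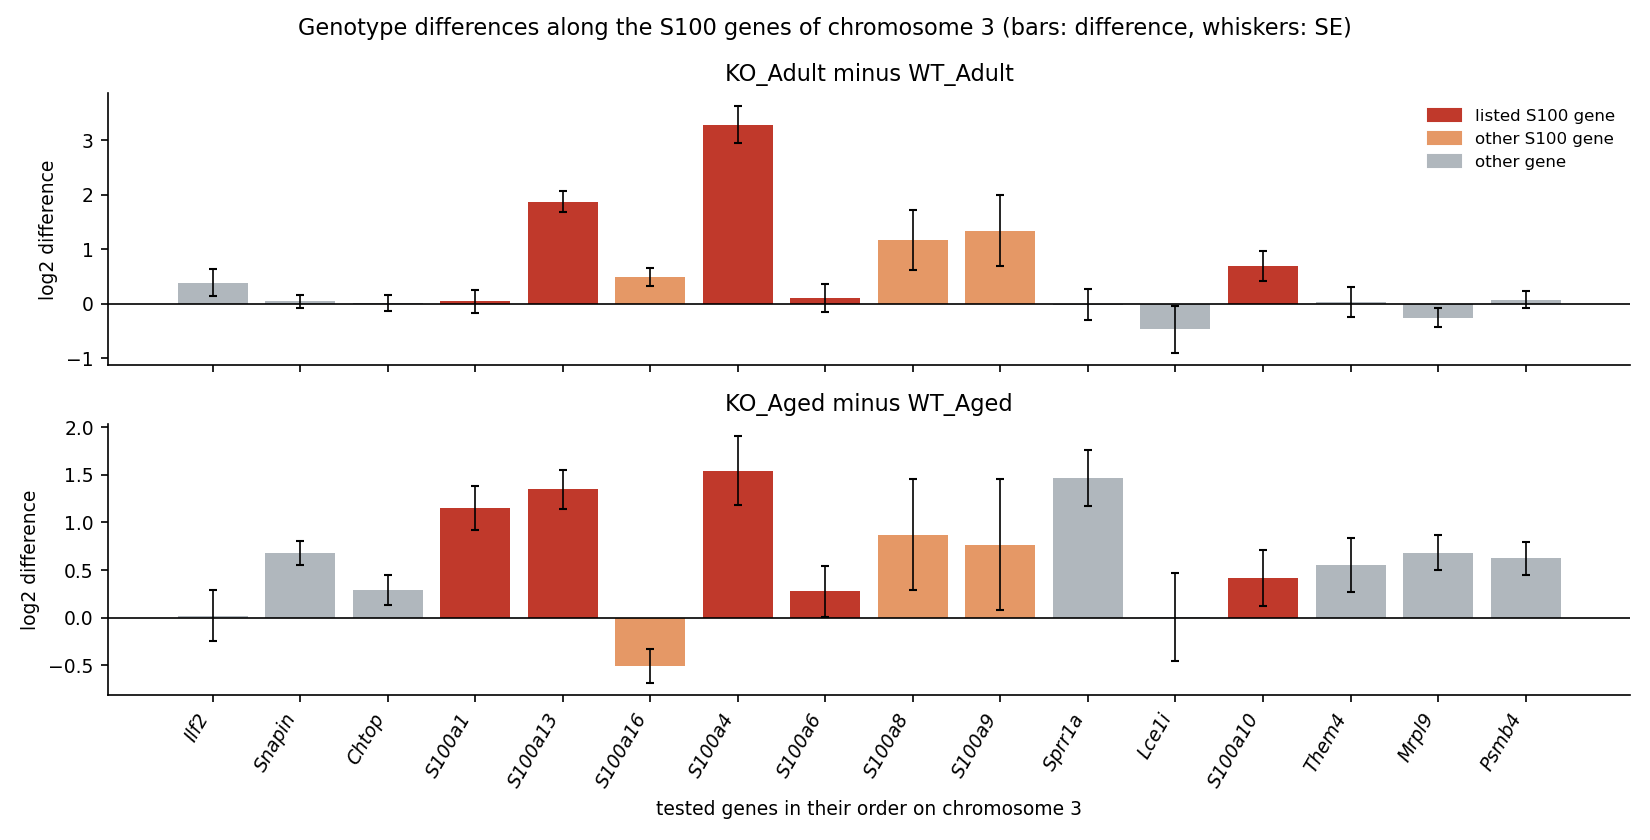
Log2 difference (bars) with its SE (whiskers) for tested genes in their order on chromosome 3, KO_Adult minus WT_Adult above and KO_Aged minus WT_Aged below. S100a13 (1.87) and S100a4 (3.29) are the highest bars in adult muscle.

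Proteins that S100 proteins bind formed a list of 24 genes, of which 16 were tested. Fgf1, the growth factor whose release involves S100a13, had the largest fall of the list. Its intensity was 641, 447, 527, 1493 and 479 in KO_Adult, against 2550, 2191, 2859, 2244 and 2450 in WT_Adult. In aged muscle it was 731, 426, 539 and 441 in KO_Aged, against 4644, 3585, 4260, 3065 and 4711 in WT_Aged. No KO array reached the lowest WT array at either age, so Fgf1 was low on the same arrays on which S100a13 was high. Fgf1 fell by 1.92 (SE 0.25, adjusted p = 8.35e-05) in adult and fell by 2.96 (SE 0.27, adjusted p = 1.69e-06) in aged KO muscle, and with the batch term by log2 differences of -2.12 (adjusted p = 0.00126) and -2.62 (adjusted p = 0.00569).

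Annexins, membrane-binding proteins that S100 dimers can bridge, differed by member and age. Anxa2, the partner of S100a10, read 7703, 8520, 9363 and 6678 in KO_Aged, against 5023, 3710, 3399, 5364 and 2483 in WT_Aged. Anxa2 rose by 1.11 (SE 0.25, adjusted p = 0.00303) in aged KO muscle, without overlap, and had 1.10 (adjusted p = 0.126) with the batch term. In adult muscle Anxa2 differed by 0.51 (adjusted p = 0.146), and Anxa1, the partner of S100a11, by 0.61 (adjusted p = 0.0908). Anxa6 fell by 1.17 (SE 0.25, adjusted p = 0.00387) in adult KO muscle and rose by 2.05 (SE 0.26, adjusted p = 3.19e-05) in aged KO muscle. Its KO_Adult values followed the spike-in batch, at 1894 and 1731 without the signal and 939, 724 and 766 with it, and neither Anxa6 difference passed with the batch term (adjusted p = 0.193 in adult and 0.0763 in aged muscle).

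Over the whole partner list 2 of 16 fell and none rose in adult KO against WT, Fgf1 and Anxa6, with a median of 0.05, where 9.37% of all genes were called lower and 7.32% higher. With the batch term the 2 that fell were Fgf1 and Myh9, the heavy chain of non-muscle myosin bound by S100a4. Myh9 differed by -0.54 (SE 0.22, adjusted p = 0.105) between adult genotypes and by -0.95 (adjusted p = 0.0405) with the term. In aged KO against WT 5 rose and 2 fell, with a median of 0.10, where 16.9% of all genes were called higher and 12.5% lower. Beside those above these were Anxa5, up by 1.44, the SERCA pumps Atp2a1, up by 0.47, and Atp2a2, up by 2.35, and Myh9, which fell by 1.29. With the batch term Fgf1 and Atp2a2 (2.69, adjusted p = 0.00538) passed in aged muscle, where 5.49% of all genes were called. Ryr1, the calcium release channel bound by S100a1, differed by -0.32 (adjusted p = 0.103) in adult and 0.27 (adjusted p = 0.153) in aged KO muscle. Ager, a cell surface receptor for S100 proteins, was too dim to be tested, with mean intensities of 28.3 in KO_Adult, 24.3 in WT_Adult, 32.9 in KO_Aged and 24.4 in WT_Aged.

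**Figure D5:**
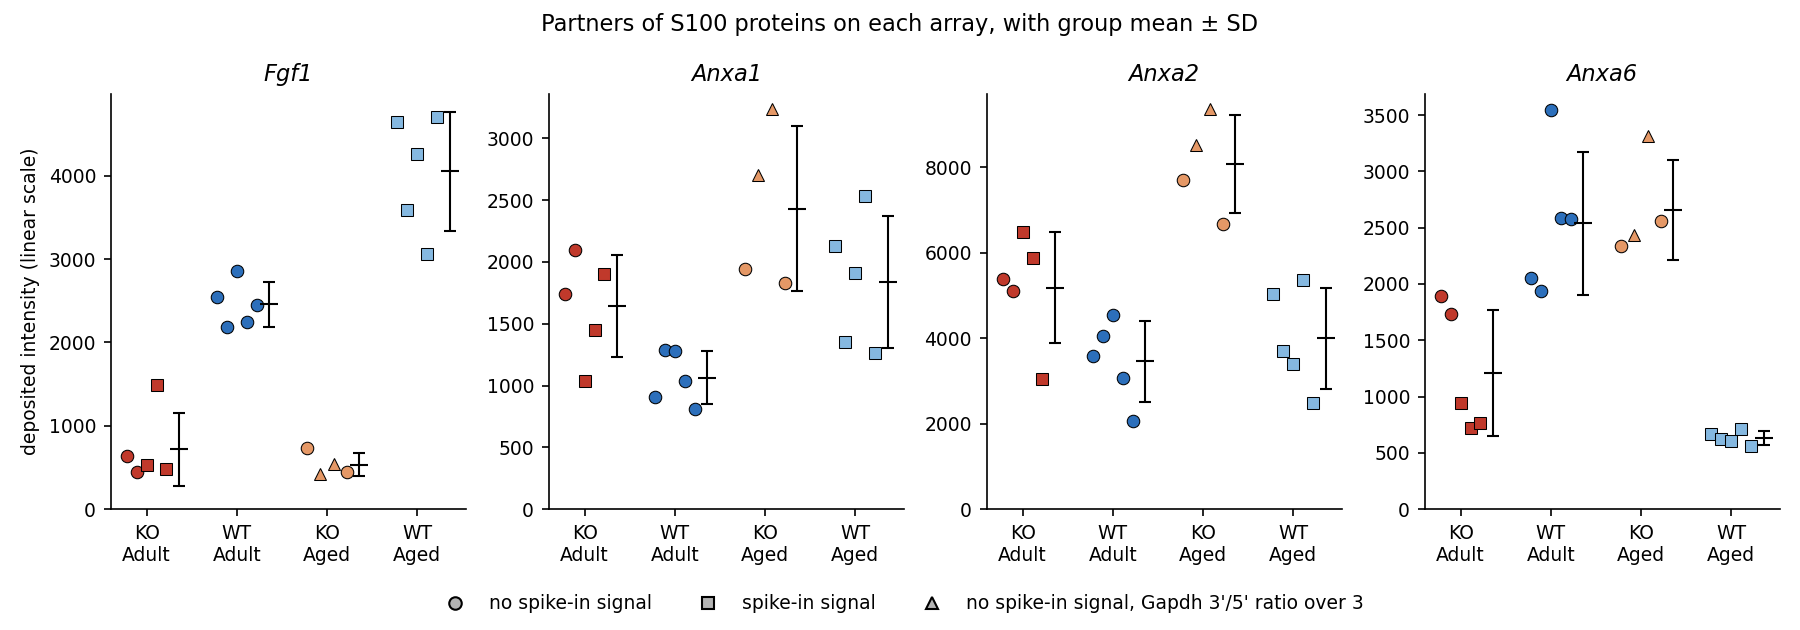
Deposited intensity (linear scale) of Fgf1, Anxa1, Anxa2 and Anxa6 on each array, by group, with the group mean and SD as a black bar; symbols as in the plot of the S100 genes. Fgf1 is below every WT array on all KO arrays at both ages, while the Anxa6 values of KO_Adult split into 1731 to 1894 without spike-in signal and 724 to 939 with it.

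Other EF-hand genes gave a comparison within the wider protein class, with 16 of 26 listed genes tested. In adult KO against WT 2 rose and none fell, the centrin Cetn2 by 0.98 (SE 0.15, adjusted p = 0.000298) and Pdcd6 by 0.55 (SE 0.12, adjusted p = 0.00496), where 16.7% of all genes were called, and both passed with the batch term. In aged KO against WT 3 rose, Capns1, the small calpain subunit, by 1.04, Sdf4 by 0.83 and the slow troponin Tnnc1 by 3.29, and Ppp3r1, the calcineurin regulatory subunit, fell by 1.18. That is 4 of 16, where 29.5% of all genes were called, and none of the 4 passed with the batch term (5.49% of all genes called). Pvalb, the parvalbumin that buffers calcium in fast fibres, differed by -0.02 (adjusted p = 0.921) in adult and -0.05 (adjusted p = 0.71) in aged KO muscle. The list's medians were 0.11 in adult and 0.16 in aged muscle.

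Fibroblasts and leukocytes are rich in S100a4, so their markers are given beside it. The neutrophil markers include S100a8 and S100a9, so they are not separate from the calprotectin values given below. In whole muscle fewer cells of a type and less RNA per cell cannot be told apart. Between adult genotypes no macrophage marker of 11 tested and no neutrophil marker of 6 passed, and of 9 fibroblast markers Col1a1 fell and none rose (with the batch term 1 rose and none fell). Summed intensities of macrophage markers were 4054 to 8499 in KO_Adult and 3999 to 6750 in WT_Adult. Those of neutrophil markers were 708 to 4951 in KO_Adult and 815 to 2282 in WT_Adult, and those of fibroblast markers 13104 to 30736 in KO_Adult and 18849 to 22633 in WT_Adult. The medians of these sums were 4645 in KO_Adult and 5141 in WT_Adult for macrophage markers, 2317 in KO_Adult and 1120 in WT_Adult for neutrophil markers, and 26239 in KO_Adult and 19518 in WT_Adult for fibroblast markers. All 3 ranges overlapped between adult genotypes. Endothelial markers fell in 9 of 10 (3062 to 3507 in KO_Adult and 7160 to 8709 in WT_Adult), and satellite cell and myoblast markers in 1 of 3 tested (1796 to 3069 in KO_Adult and 3310 to 4604 in WT_Adult). None of 4 Schwann cell markers passed (1093 to 1852 in KO_Adult and 1460 to 2498 in WT_Adult). Of all genes tested, 7.32% were called higher and 9.37% lower between adult genotypes.

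In aged KO against WT no macrophage marker passed (7154 to 12894 in KO_Aged and 3820 to 13518 in WT_Aged), and the neutrophil marker Lcn2 fell while none rose (7827 to 14046 in KO_Aged and 5204 to 16168 in WT_Aged). Fibroblast markers rose in 4 of 9, Col1a1, Col3a1, Dpt and Col6a1, beside the rises of S100a4, S100a13 and S100a1. Sums of the fibroblast markers were 21806 to 31656 in KO_Aged and 10706 to 18025 in WT_Aged, and did not overlap. Of all genes tested, 16.9% were called higher and 12.5% lower in this comparison. None of the 9 fibroblast markers passed with the batch term, where 5.49% of all genes were called. Of 10 endothelial markers 5 fell and Tie1 rose (3381 to 4687 in KO_Aged and 4587 to 5667 in WT_Aged). Satellite cell and myoblast markers fell in 2 of 3 and rose in 1 (1664 to 2978 in KO_Aged and 3123 to 4750 in WT_Aged). Schwann cell markers rose in 2 of 4 (1788 to 3038 in KO_Aged and 1102 to 1707 in WT_Aged). In the fit with the batch term 2 endothelial markers fell and none rose, 1 satellite cell and myoblast marker fell and none rose, and no Schwann cell, neutrophil or macrophage marker passed. No marker on these lists stayed at or below the pseudocount on all arrays. Their part in the S100 differences was not tested.

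Calprotectin was not called for genotype at either age. S100a8 differed by 1.16 (adjusted p = 0.153) in adult and 0.87 (adjusted p = 0.272) in aged KO muscle, and S100a9 by 1.34 (adjusted p = 0.162) and 0.77 (adjusted p = 0.419). Between ages S100a8 rose by 2.85 (adjusted p = 0.00101) in WT_Aged against WT_Adult and by 2.55 (adjusted p = 0.0143) in KO_Aged against KO_Adult, and S100a9 rose by 3.20 (adjusted p = 0.00135) and 2.63 (adjusted p = 0.027). With the batch term the WT age differences did not pass (adjusted p = 0.253 for S100a8 and 0.248 for S100a9), and of the KO age differences that of S100a8 did (0.0373) and that of S100a9 did not (0.0654).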

How the data were processed

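The deposited table gives each probe set 1 linear intensity value on every array, made by the authors with MAS5 per the submitters' processing notes; further settings are not given in the sources used here. It has 22690 probe sets, 64 of them controls. Genes were named from the platform annotation (20380 probe sets with 1 symbol, 691 with several, 1619 with none). Values became log2(value + 4.76), the pseudocount being percentile 10 of all values, and were quantile normalized without the control probe sets, because array medians spanned 0.63. Each gene was represented by its brightest probe set over all arrays, and genes in the top 60% by mean were tested. Fold changes are on this scale and understate those of dim genes.

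limma 3.58.1 (R 4.3.3) fitted 1 mean per group over 19 arrays; calls are at a Benjamini-Hochberg adjusted p under 0.05 over 7436 genes. The method was tested on simulated arrays. The number of arrays limits the precision. An array counted as having spike-in signal where the dap control read over 100, and as 3'-biased where the Gapdh ratio was over 3. Named genes were the listed S100 genes, other S100 genes, partners, EF-hand genes, cell type markers, chromosome neighbours and the 5 genes most like S100a4. The members and all lists were chosen with earlier results of these data known. Alternatives covered normalization, pseudocount, filter, probe set, variance model, array weights, batch, title codes, RNA quality, threshold and each array left out. Promoters and gene order came from RefSeq (GRCm38.p6); 5 of the 6 listed genes had a window. Plots used Python 3.11.15 and matplotlib 3.10.9.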

Additional observations from a re-analysis of the deposited data

Results flagged for a closer look

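The genotype difference of S100a4 differed between ages: KO_Aged minus WT_Aged, less KO_Adult minus WT_Adult, was -1.74 (SE 0.50) on the log2 scale, the difference being smaller in aged muscle. What picked it out was the fitted interaction, which holds the adult arrays on which S100a4 was singled out, so it is given as a description; with the batch term it was -1.24 (SE 0.95). The fitted interaction of S100a1 was picked out too, at 1.11 (SE 0.32, adjusted p = 0.0169), its genotype difference being larger in aged muscle. The batch term turned this S100a1 value to -0.40 (adjusted p = 0.617). Once KO_Aged replicates 2 and 3 were dropped, S100a1 had 0.85 (adjusted p = 0.114) and S100a13 had -0.92 (adjusted p = 0.0298). These p-values share the adult arrays of the selection as well, so they are descriptions and not tests. No single array of the 5 S100 genes stood apart from its group in the 20 groups of values examined for an outlier. The rule used the gap of 1 extreme value over the group's range. It cannot flag a pair of arrays, such as the 2 KO_Adult arrays without spike-in signal for S100a1.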

How the results depend on the processing

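The adult differences of S100a4 and S100a13, which are descriptions, ranged over 2.50 to 3.55 and 1.63 to 2.11 in 27 alternatives each. Over 25 values of the 5 genes, 670 alternative values gave 586 unchanged calls, 29 lost calls, 18 gained calls and 37 changes of sign. The setting with only the arrays that have spike-in signal was chosen after seeing the data. The causes were not tested.

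The counts that follow include S100a4, and calls on adult arrays are no test for it or for the other listed genes. Of the 5 genes, the number called in aged KO against WT (3) was 0 with the batch term and 0 with it and without the 3'-biased arrays, and 3 to 3 with single arrays left out. In adult KO against WT (2) it was 2 to 3 with single arrays left out. In WT_Aged against WT_Adult (2) it was 1 without the filter, 1 at an adjusted p under 0.01, 0 with the batch term, the title code block or both changes, and 1 to 3 with single arrays left out. In KO_Aged against KO_Adult (0) it was 1 with array weights, the title code block, without the 3'-biased arrays or with both changes, and 0 to 1 with single arrays left out. For the interaction (2) it was 1 with median centring and 0 with the batch term, the title code block, both changes or an adjusted p under 0.01, and 2 to 2 with single arrays left out.

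Signs turned as follows. S100a6 between adult genotypes had -0.31 with array weights and -0.50 on arrays with spike-in signal. With single arrays left out it had -0.018 to 0.24 (below 0 without WT_Adult replicate 5 or KO_Adult replicate 2). S100a1 there had -0.35 with array weights and -0.12 to 0.20 with single arrays left out (below 0 without WT_Adult replicates 4 or 5 or KO_Adult replicates 1 or 2). In aged genotypes S100a6 had -0.29 with the batch term, -0.22 without the 3'-biased arrays and -0.78 with both, and S100a1 had -0.059 with both. Between WT ages S100a13 had 0.089 with median centring, 0.25 with the batch term, title code block or both changes, and -0.15 to 0.031 with single arrays left out (above 0 without WT_Adult replicates 1, 2 or 3 or WT_Aged replicate 2), and S100a1 had 0.10 with the same 3 terms. Between KO ages S100a6 had -0.29 with both changes, and S100a1 had -0.30 with the batch term or on arrays without spike-in signal and -0.56 with both changes. For the interaction S100a6 had -0.19 with median centring, -0.73 with the batch term, -0.16 with the title code block, -0.32 without the 3'-biased arrays, -1.22 with both and -0.0071 (without KO_Aged replicate 2) to 0.35 with single arrays left out; S100a10 had 0.31 with the batch term; and S100a1 had -0.40 with it and -0.67 with both.

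The difference of S100a4 between WT ages was 0.60 to 1.16 over 25 alternatives. Without the 3'-biased arrays the interaction count of 2 holds S100a13 in place of S100a1. Counts over all genes also moved. Adult genotypes (1241) gave 3802 with array weights, 624 with the groups compared alone, 496 with the batch term or title code block, 106 on arrays without spike-in signal, 591 with both changes, 504 at an adjusted p under 0.01 and 751 without WT_Adult replicate 3. Aged genotypes (2190) gave 408 with the batch term, 1059 without the 3'-biased arrays, 560 with both and 1150 at 0.01. WT ages (2891) gave 4627 with array weights, 7 with the batch term or title code block, 5 with both changes and 1510 at 0.01. KO ages (553) gave 357 without the filter, 1268 with array weights, 51 with the groups compared alone, 5 on arrays without spike-in signal, 1399 with the title code block, 117 without the 3'-biased arrays, 941 with both changes, 114 at 0.01, and 318 and 191 without KO_Adult replicate 5 or KO_Aged replicate 3. The interaction (1864) gave 3935 with array weights, 2 with the batch term, 672 with the title code block, 1083 without the 3'-biased arrays, 0 with both changes and 804 at 0.01. Median centring moved the median adult difference of all genes to 0.20, against 0.04 with quantile normalization, and made 71.3% of adult calls higher, against 29.7% with no normalization between arrays; the interaction median became -0.14 with median centring and 0.17 with none. No paired analysis was possible because replicate numbers here only name arrays.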

Other observations

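Of the other S100 genes with a probe set of their own, S100a3, S100a5, S100a14, S100b and S100g were too dim to be tested. S100b, which Schwann cells express, read 4.56 to 44.6 in KO_Adult, 26.7 to 41.6 in WT_Adult, 16.7 to 40.8 in KO_Aged and 1.01 to 48.3 in WT_Aged on its main probe set.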
